A study of Mus musculus with 6 samples.

Results

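Gimap4 and 6 genes for cell surface proteins, Cd53, Fcrl1, Tnfrsf19, Milr1, Emp1 and Cd55, were followed in a mouse pro-B cell line before and after tamoxifen. They were chosen by gene symbol from the rows of the authors' deposited table, which the authors had selected on p-value and fold between tamoxifen and untreated cells, and Milr1 stands there under its older symbol Gm885. They are 7 of the 225 genes that have a name in the series. Each symbol had 1 row, so they were measured by 7 of the 251 probe sets of that table, while the arrays hold 35557 probe sets in all. The cells were an Abelson pro-B line, transformed by Abelson murine leukaemia virus, and all cultures carried a retrovirus that makes Gfi1b joined to the oestrogen receptor domain. Gfi1b is a zinc finger protein that represses genes in developing blood cells, and a protein joined to this domain becomes active once tamoxifen binds it. The untreated group (MINUS OHT in the labels) had 3 arrays, and the tamoxifen group (PLUS OHT) had 3 arrays from cells kept in tamoxifen for 12 h. No tamoxifen-treated culture without the fusion was analysed here, and all arrays come from 1 line, so effects of the drug, of the fusion and of this line cannot be told apart. That each replicate was a separate culture rests on the design text, which calls the replicates biological. The p-values computed here rest on the spread within the groups of these 6 arrays, in most fits shared in part across probe sets.

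Lymphocytes carry sets of surface proteins that change as the cells mature, and these proteins set which signals a cell receives. Tetraspanins such as Cd53 gather other membrane proteins into patches, receptors of the immunoglobulin superfamily such as Fcrl1 and Milr1 pass signals through tyrosines of their tails, and Cd55 protects a cell from complement. GIMAP proteins, in contrast, are GTP-binding proteins inside lymphocytes, and only some of them are anchored in inner membranes or linked to cell survival. Tnfrsf19 and Emp1 are best known from epithelial and nervous tissue.

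Before the values, the promoter sequences of the genes with the largest reductions are shown together with that of Emp1, which alone held a searched motif. They are the 250 bases before the annotated start of each gene, from the RefSeq promoter table on GRCm38.p6, read 5′ to 3′ on the gene's strand. Capitals mark a match to the FoxO site GTAAACA. The stretches are chr6:48684328-48684577 on the plus strand for Gimap4, chr3:106790150-106790399 on the minus strand for Cd53, chr3:87376137-87376386 on the plus strand for Fcrl1 and chr6:135362681-135362930 on the plus strand for the first of 2 starts of Emp1.
Gimap4 upstream bases: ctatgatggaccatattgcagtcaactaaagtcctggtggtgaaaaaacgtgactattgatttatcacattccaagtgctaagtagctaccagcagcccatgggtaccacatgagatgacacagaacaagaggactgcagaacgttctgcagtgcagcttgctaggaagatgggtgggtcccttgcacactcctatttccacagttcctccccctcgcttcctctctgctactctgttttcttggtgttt
Cd53 upstream bases: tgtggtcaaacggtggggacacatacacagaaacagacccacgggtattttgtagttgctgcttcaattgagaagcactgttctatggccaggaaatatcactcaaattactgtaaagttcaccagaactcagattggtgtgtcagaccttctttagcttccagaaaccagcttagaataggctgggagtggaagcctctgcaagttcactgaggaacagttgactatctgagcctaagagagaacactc
Fcrl1 upstream bases: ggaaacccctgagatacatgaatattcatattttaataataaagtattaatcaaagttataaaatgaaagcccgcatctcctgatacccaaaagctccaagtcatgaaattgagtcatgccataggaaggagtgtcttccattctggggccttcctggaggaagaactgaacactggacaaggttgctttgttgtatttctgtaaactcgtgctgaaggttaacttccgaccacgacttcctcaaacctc
Emp1 upstream bases: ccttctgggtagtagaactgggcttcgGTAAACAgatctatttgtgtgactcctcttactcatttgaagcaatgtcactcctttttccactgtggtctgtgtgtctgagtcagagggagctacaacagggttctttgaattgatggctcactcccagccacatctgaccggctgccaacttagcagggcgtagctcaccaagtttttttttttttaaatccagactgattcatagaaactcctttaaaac

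The table held 9 promoter windows for the 7 genes, 2 each for Emp1 and Tnfrsf19, and each window had 300 bases, of which 50 lie after the start. The core AATCAC, bound by Gfi1 family proteins, was in 0 of the 9 windows on either strand, while 10.4% of all 32851 windows held it. Its longer form AATCACNGC, which contains the core, was in 0 of the 9 windows and in 0.919% of all windows. GTAAACA was in 1 of the 9 windows, at bases -223 to -217 from the first Emp1 start, and in 3.65% of all windows. These counts describe letters in short windows, and a window without a match says nothing about binding elsewhere. In base composition the upstream stretch of Cd55 stood at 64.0% G and C, against a median of 52.4% over all windows, and that of Fcrl1 stood lowest among the 9 at 40.8%. The upstream stretches of Gimap4 and Cd53 had 47.6% and 45.2%.

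The comparison of tamoxifen with untreated cultures asks which transcripts differ once the drug that activates the Gfi1b fusion is added. It does not separate the drug from the fusion. Transcripts of Gimap4 and of 5 of the 6 surface protein genes fell, by 2.63-fold to 5.40-fold, and Cd55 had the opposite sign and did not pass the test. The test was limma on the log2 values as deposited, with p-values adjusted by Benjamini and Hochberg's method across the 35557 probe sets and a threshold of 0.05. By that rule 6 of the 7 genes were lower and 0 were higher, beside 0.456% of all probe sets called lower and 0.433% called higher. Because these rows were selected on the same contrast, the shares, folds and adjusted p given for the 7 genes are descriptions and support nothing. The median log2 fold change was -1.78 over the 7 genes and -0.0092 over all probe sets. On none of the 7 did the 2 groups overlap. The same held for all 251 rows of the authors' deposited table, so it says nothing particular about the 7. For 6 all tamoxifen values lay below the untreated ones, as in 7.78% of all probe sets, and for Cd55 they lay above, as in 10.5%. In the authors' deposited table the lowest fold was 1.503 and the highest p 0.0451. Nearest to both limits among the 7 stood Cd55, at a fold of 1.60 and a p of 0.0131 in the authors' deposited table.

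**Figure D1:**
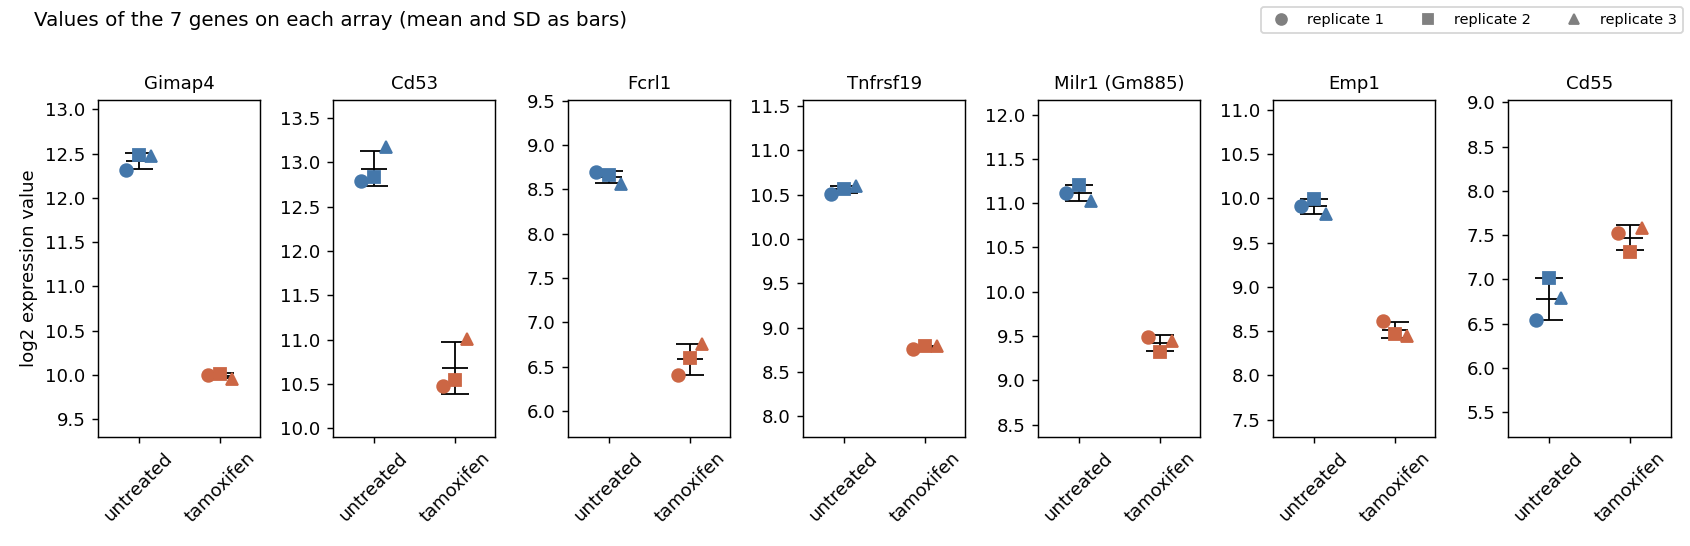
Log2 expression value (vertical axes, each spanning the same number of log2 units) of the 7 genes on the 3 untreated and the 3 tamoxifen arrays, with marker shape giving the replicate number and bars the mean and SD. The tamoxifen values lie below the untreated ones in 6 panels and above them for Cd55, where the gap between the groups is 0.29.

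The GTPase gene came first in size. Gimap4, in band B2.3 of chromosome 6 (probe set 10538126), read 12.32, 12.48 and 12.47 on the untreated arrays of replicates 1, 2 and 3 and 10.00, 10.01 and 9.96 on the tamoxifen arrays (log2). The 3 tamoxifen values lay within a narrow band, 2.31 log2 units or more below every untreated value. The log2 fold change was -2.43 ± 0.066 (SE, n = 3 per group; limma adjusted p = 0.00016), a reduction of 5.40-fold with a 95% interval from 4.84 to 6.03. Ranked from the most negative log2 fold change of all 35557 probe sets, Gimap4 was number 2. After the reduction its probe set still stood between percentiles 78.3 and 79.5 of the values on each tamoxifen array, down from 96.0 to 96.4 on the untreated arrays. Of the 8 genes of the GIMAP list, which lie within a stretch of 10 genes on chromosome 6 in the RefSeq order, Gimap4 was the 1 with a row in the authors' deposited table. The other 7 were not analysed here, because probe sets outside that table have no name in the files.

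The surface proteins of leukocytes were next. Cd53, a tetraspanin found on most leukocytes, lies in band F2.3 of chromosome 3 (probe set 10501063). It read 12.79, 12.84 and 13.17 untreated and 10.48, 10.54 and 11.01 with tamoxifen (log2, replicates 1 to 3). The array of replicate 3 was the highest in both groups, and the SD was 0.20 untreated and 0.29 with tamoxifen. Untreated, Cd55 had a larger SD, at 0.24, but over both groups Cd53 had the largest within-group SD of the 7, at 0.25. Its log2 fold change was -2.26 ± 0.17 (SE, n = 3 per group; limma adjusted p = 0.0066), or 4.79-fold with a 95% interval from 3.61 to 6.34. With an unmoderated test, which uses each probe set's own spread alone, the adjusted p was 0.085, and the call was lost. In the RefSeq order its nearest named gene was Csf1, a growth factor of macrophages, with 28 genes between them and a log2 fold change of -1.15 (limma adjusted p = 0.015).

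Fcrl1, a receptor of B cells with immunoglobulin domains, lies in band F1 of the same chromosome (probe set 10492971). It read 8.70, 8.66 and 8.56 untreated and 6.40, 6.60 and 6.75 with tamoxifen (log2, replicates 1 to 3). The tamoxifen arrays were spread over a wider range than the untreated ones, and all lay 1.81 or more below them. The log2 fold change was -2.05 ± 0.099 (SE, n = 3 per group; limma adjusted p = 0.0013), or 4.16-fold with a 95% interval from 3.52 to 4.90. With tamoxifen its probe set stood between percentiles 26.7 and 33.7 of each array, and the files hold no measure of background, so how far dimness limits this fold was not tested.

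Milr1, also called allergin-1, is an inhibitory receptor known from mast cells, and its row lies in band E1 of chromosome 11 (probe set 10382106). It read 11.12, 11.20 and 11.02 untreated and 9.49, 9.32 and 9.44 with tamoxifen (log2, replicates 1 to 3). The groups stood 1.53 apart at their nearest values, and SDs were alike at 0.090 and 0.089. The log2 fold change was -1.69 ± 0.076 (SE, n = 3 per group; limma adjusted p = 0.0012), or 3.24-fold with a 95% interval from 2.85 to 3.67. Its nearest neighbour on the chromosome with a named row was Cd79b, a chain of the B cell receptor, with 12 genes between them. Cd79b had the opposite direction, a log2 fold change of 0.65 (limma adjusted p = 0.021), and with single arrays left out in turn it passed in 1 of 6 fits, the one without untreated replicate 2.

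The remaining reductions were of genes better known outside lymphocytes. Tnfrsf19, a receptor of the tumour necrosis factor family also called TROY, lies on chromosome 14 (probe set 10420596). It read 10.51, 10.56 and 10.60 untreated and 8.76, 8.79 and 8.79 with tamoxifen (log2, replicates 1 to 3). These were the tightest groups of the 7, with a within-group SD of 0.032 that stood at percentile 3.79 of all probe sets, whereas that of Cd53 stood at percentile 89.7. The log2 fold change was -1.78 ± 0.054 (SE, n = 3 per group; limma adjusted p = 0.00022), or 3.42-fold with a 95% interval from 3.13 to 3.75.

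Emp1, a small membrane protein of the PMP22 family, lies in band G1 of chromosome 6 (probe set 10542355). It read 9.91, 9.99 and 9.82 untreated and 8.61, 8.47 and 8.45 with tamoxifen (log2, replicates 1 to 3). No value of one group came within 1.21 of the other. The log2 fold change was -1.40 ± 0.075 (SE, n = 3 per group; limma adjusted p = 0.0021), or 2.63-fold with a 95% interval from 2.32 to 2.98. Gimap4 and Emp1 share a chromosome without being neighbours, since the nearest named gene to Emp1 in the RefSeq order was Clec2i, with 190 genes between them, and the nearest to Gimap4 was Slc37a3, with 303 between.

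Cd55, the decay-accelerating factor that takes apart the enzymes of complement on the cell surface, differed from the others. In band E4 of chromosome 1 (probe set 10357488), it read 6.54, 7.02 and 6.79 untreated and 7.52, 7.31 and 7.58 with tamoxifen (log2, replicates 1 to 3). Untreated replicate 2 was the highest of its group and tamoxifen replicate 2 the lowest, and these values were 0.29 apart. The log2 fold change was 0.68 ± 0.14 (SE, n = 3 per group; limma adjusted p = 0.10), with a 95% interval from 0.36 to 1.01. That interval, unlike the p, is not adjusted for the number of probe sets. Untreated values stood between percentiles 28.4 and 39.4 of each array and tamoxifen values between 44.9 and 51.0. Cd55 passed in 2 of 14 alternatives, with array weights (log2 fold change 0.78, limma adjusted p = 0.025) and without the low-numbered probe sets described next, an alternative chosen after the data were seen (0.68, limma adjusted p = 0.034).

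**Figure D2:**
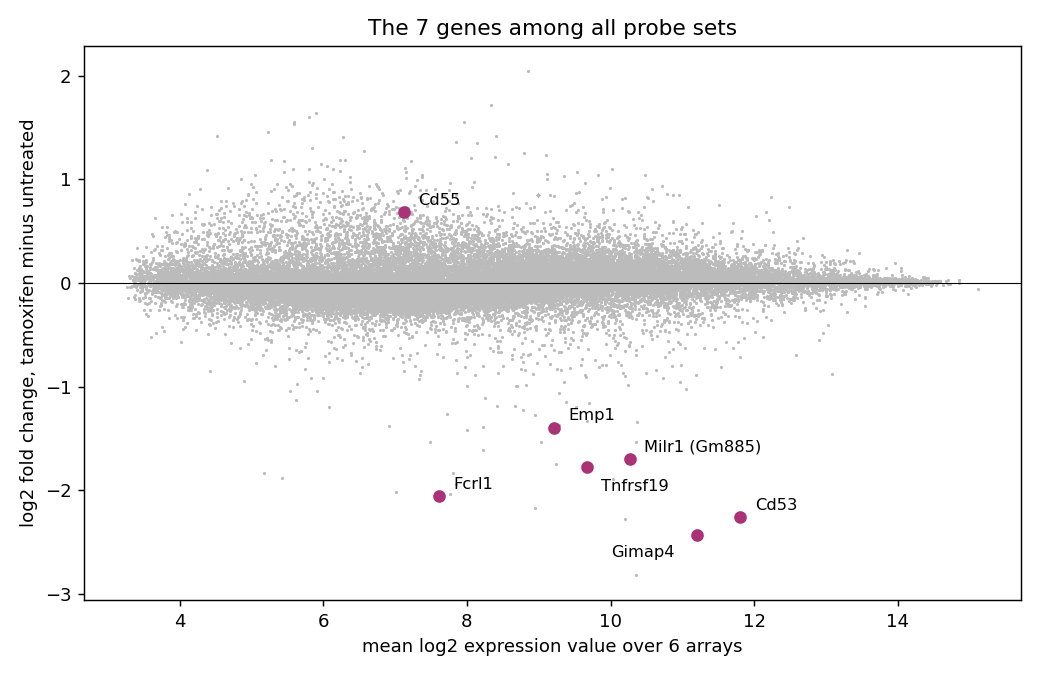
Log2 fold change, tamoxifen minus untreated (vertical axis), against the mean log2 expression value over 6 arrays (horizontal axis) for all 35557 probe sets in grey, with the 7 genes as labelled points. Gimap4 and Cd53 stand at the lower right at -2.43 and -2.26, while Cd55 lies within the upper edge of the grey cloud at 0.68.

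The arrays held a pattern that crossed the treatment, and among the 7 genes Cd55 and Milr1 had a similar order. Milr1 was highest of its group on untreated replicate 2 (11.20) and lowest of its group on tamoxifen replicate 2 (9.32). Below the smallest probe set number of the authors' deposited table lie 6667 probe sets, whose median was 7.26 and 7.27 on untreated replicates 1 and 3 against 7.53 and 7.48 on tamoxifen replicates 1 and 3. The order was turned in replicate 2, where the untreated array had 7.50 and the tamoxifen array 7.31. Whole-array medians lay between 7.52 and 7.61. Of the family genes given below, Relt, Btla and Ly9 had the same order within their groups as Cd55 and Milr1, and Cd300lf did not. The part of this pattern in the values of these genes was not tested. Without both arrays of replicate 2, again an alternative chosen after the data were seen, the log2 fold change of Cd55 was 0.88 with a limma adjusted p of 0.056, and the 6 lower genes had log2 fold changes from -2.41 to -1.34.

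**Figure D3:**
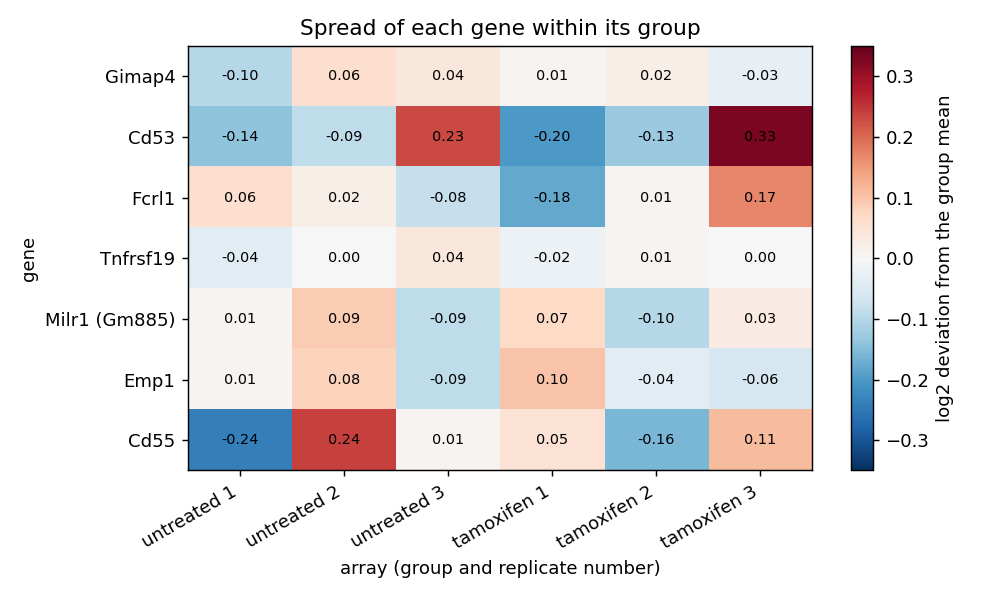
Deviation of each array's log2 value from its group mean (colour and printed number) for the 7 genes in rows and the 6 arrays in columns. Cd53 was high on both replicate 3 arrays (0.23 and 0.33), and Tnfrsf19 deviated by 0.04 or less. Cd55 was high on untreated replicate 2 (0.24) and low on tamoxifen replicate 2 (-0.16). Milr1 had the same signs as Cd55 on the replicate 2 arrays (0.09 and -0.1).

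In order of fold the genes were Gimap4, Cd53, Fcrl1, Tnfrsf19, Milr1 and Emp1. The 95% interval of each overlapped that of the next in line, which does not show that neighbours had the same fold, and differences between genes were not tested. In a bulk culture, fewer cells that make a transcript and less transcript per cell cannot be told apart.

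The profiles over the 6 arrays were also set against those of 206 other named genes of the authors' deposited table, each gene counted from its own untreated mean and likeness measured by Euclidean distance. For Gimap4 the nearest was Rag1, a subunit of the recombinase that assembles antigen receptor genes, at a distance of 0.31 (log2 fold change -2.28). The nearest to Cd53 was likewise Rag1, at 0.63, and the nearest to Fcrl1 was Rgs18, a regulator of G protein signalling, at 0.45 (log2 fold change -1.89). Tnfrsf19 and Milr1 had the same nearest gene, P2ry10, a G protein-coupled receptor for a lysophospholipid, at 0.16 and 0.19 (log2 fold change -1.74). Tnfrsf19 and Milr1 were also nearest to each other among the 7, at 0.26. Emp1 lay nearest to Lpar6, a receptor for lysophosphatidic acid, at 0.11 (log2 fold change -1.37), followed by Tmem255a at 0.24 and Evl, an actin regulator, at 0.31. Cd55 lay nearest to the choline transporter gene Slc44a1 at 0.13 (log2 fold change 0.72, limma adjusted p = 0.048) and to Ralgps2 at 0.15 (log2 fold change 0.70, limma adjusted p = 0.057). The distance is set mainly by the size of the difference between groups, so that genes with like folds are near by construction.

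Few related genes of the 7 families could be named. The lists of GIMAP proteins, Fc receptors, tetraspanins, TNF receptors, the PMP22 family, complement regulators and immunoglobulin-like receptors held 97 genes, of which 11 had a named row. Without the 7 genes that left 4 of 90, and 2 of these rose and 2 fell past the threshold. Genes have a name only through the authors' deposited table, whose rows were selected for change, and of its 251 rows 68 were called higher and 114 lower in the same fit, so this count says nothing particular about the families. The other 86 were not analysed here, and nothing is known of their change.

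Among TNF receptors, Relt, a receptor found in lymphoid tissue, rose while Tnfrsf19 fell. Relt read 8.63, 8.76 and 8.43 untreated and 9.65, 9.50 and 9.69 with tamoxifen (log2, replicates 1 to 3), a log2 fold change of 1.01 ± 0.10 (SE, n = 3 per group; limma adjusted p = 0.016). Its groups did not overlap, as in all 251 rows of the authors' deposited table. Among immunoglobulin-like receptors, Cd300lf, known from myeloid cells, read 8.61, 8.75 and 8.41 untreated and 9.70, 9.61 and 9.60 with tamoxifen (log2), a rise of 1.05 ± 0.096 on the log2 scale (SE, n = 3 per group; limma adjusted p = 0.014). Milr1, from the same list and also on chromosome 11, had the opposite direction.

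Btla, an inhibitory receptor of B and T cells, fell, as did Milr1. It read 7.74, 7.96 and 7.64 untreated and 7.03, 6.79 and 6.97 with tamoxifen (log2, replicates 1 to 3), a log2 fold change of -0.85 ± 0.11 (SE, n = 3 per group; limma adjusted p = 0.027). Ly9, a SLAM family receptor of lymphocytes, read 11.20, 11.30 and 11.26 untreated and 10.67, 10.66 and 10.68 with tamoxifen (log2), a log2 fold change of -0.58 ± 0.056 (SE, n = 3 per group; limma adjusted p = 0.014). Both log2 fold changes were smaller than those of Gimap4 and of the 5 surface protein genes that fell. The groups of neither gene overlapped, which held for all 251 rows of the authors' deposited table. The folds of these 4 genes moved little when 1 array was left out, while most of their calls were lost in the smaller fits. Their log2 fold changes lay between 0.92 and 1.08 for Relt, 0.96 and 1.13 for Cd300lf, -0.92 and -0.76 for Btla and -0.61 and -0.56 for Ly9. Of 6 fits that each left out 1 array, Relt, Btla and Ly9 passed in 1, the fit without untreated replicate 2, and Cd300lf passed in 2, without untreated replicate 2 or 3. In these fits the limma adjusted p reached 0.098 for Relt, 0.083 for Cd300lf, 0.13 for Btla and 0.096 for Ly9.

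**Figure D4:**
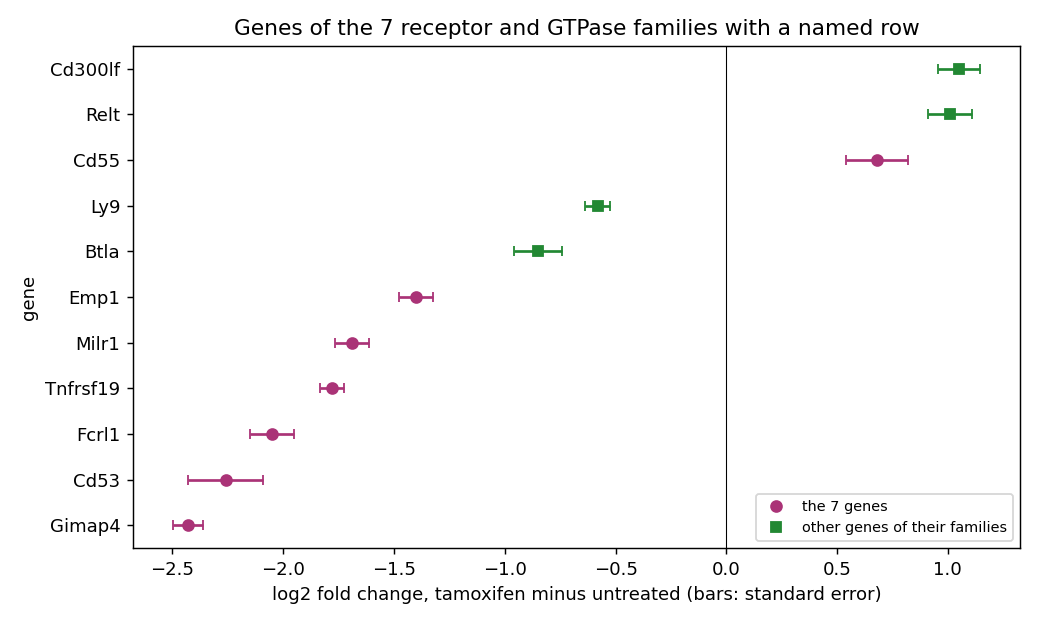
Log2 fold change, tamoxifen minus untreated, with its standard error (horizontal axis) for the 11 family genes with a named row, circles for the 7 genes and squares for the other 4. Relt and Cd300lf stand at 1.01 and 1.05, beyond Cd55 at 0.68, and Ly9 and Btla stand at -0.58 and -0.85, between Cd55 and the 6 larger reductions.

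Markers of cell types could be looked at only where the authors' deposited table names them. Its rows were selected for change on this same contrast, and of all 251 rows 68 were called higher and 114 lower. The calls given here for markers are therefore descriptions, and they do not show a gain or loss of any cell type. Of 14 pro-B and pre-B markers 3 had a row, Rag1, Rag2 and Cd79b, with untreated means of 11.34, 8.72 and 11.70 (log2). Rag1 and Rag2 fell along with the 6 reduced genes, with log2 fold changes of -2.28 and -1.83 (limma adjusted p = 0.00082 and 0.0031), and passed in all 6 fits that left out 1 array each. Cd79b rose, as given above. The other Rag2 probe set, at -0.72 on the log2 scale, missed the threshold (limma adjusted p = 0.060). Of 10 mature B cell markers 3 had a row, which were Fcrl1, Cd55 and the chemokine receptor Cxcr5, and these did not move as one, since Cxcr5 rose (log2 fold change 1.02, limma adjusted p = 0.0083) while Fcrl1 fell. Of 6 plasma cell markers Prdm1 and Xbp1 had a row, with rises of 0.89 and 0.61 on the log2 scale, and of 12 myeloid and mast cell markers Lyz1 and Lyz2 did, with rises of 0.64 and 1.26 (largest limma adjusted p 0.025, for Xbp1). Leaving out 1 array at a time, Xbp1 and Lyz1 passed in 1 of 6 fits, Prdm1 in 2, and Cxcr5 and Lyz2 in 4. Of 11 T and NK cell markers, 2 had a row, Tcf7, which rose (log2 fold change 0.85, limma adjusted p = 0.0060), and Zap70, which did not pass (0.63, limma adjusted p = 0.078). Tcf7 passed in all 6 fits that left out 1 array each (limma adjusted p from 0.018 to 0.047), and Zap70 passed in 0. None of the 6 erythroid and megakaryocyte or the 7 stromal and epithelial markers had a row. A summed level over each whole list cannot be given, because the other markers were not analysed here, and their part in the values of the 7 genes was not tested.

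The 6 reductions were looked at again under 15 alternatives. Gimap4 kept a log2 fold change between -2.49 and -2.40 and Tnfrsf19 one between -1.82 and -1.74, while Cd53 moved between -2.43 and -2.14. Across fits that each left out 1 array, the highest limma adjusted p was 0.0046 for Gimap4, 0.0066 for Tnfrsf19, 0.015 for Milr1, 0.017 for Fcrl1, 0.020 for Emp1 and 0.041 for Cd53. Groups that do not overlap fix the sign of each difference when an array is left out, so that a constant sign is no measure of stability.

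**Figure D5:**
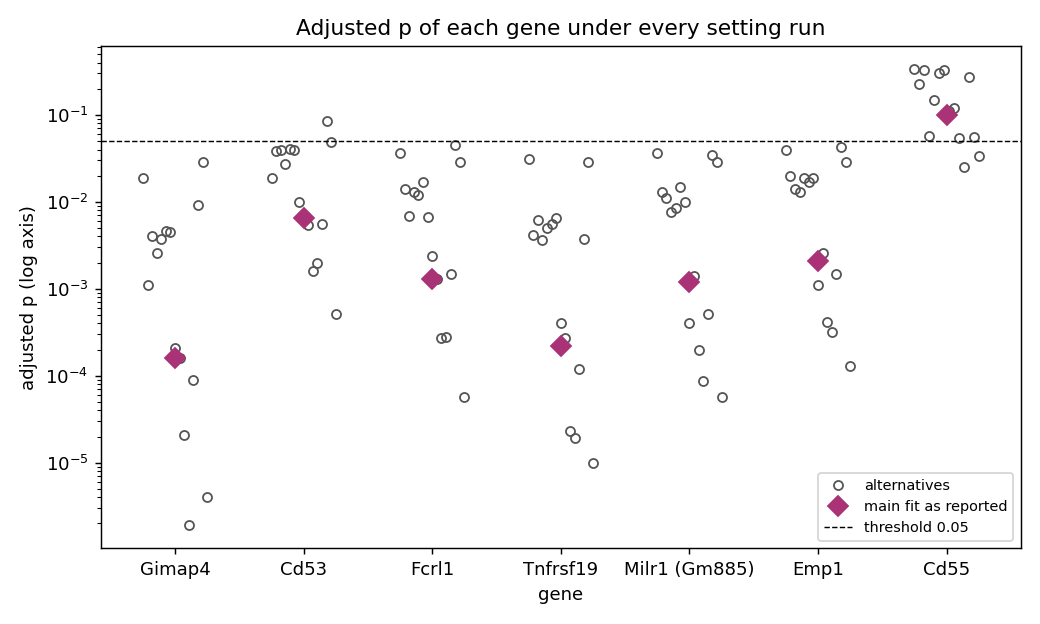
Adjusted p (vertical log axis) of each of the 7 genes in the reported fit (filled diamonds) and in 15 alternatives (open circles, 14 for Cd55), with the threshold of 0.05 as a dashed line. Of the 90 circles of the 6 reduced genes, 1 lies above the line, the unmoderated test of Cd53 at 0.085, and 2 of the circles of Cd55 lie below it.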

How the data were processed

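Per the labels' protocols, total RNA was labelled with biotin. It was hybridised to 6 one-colour arrays, whose titles gave the groups and replicate numbers. The deposited matrix holds log2 values per probe set. Base 2 was settled from the data, since mean differences matched the log2 of the authors' folds within 0.021. The submitters' processing notes name Partek, with no role. Background correction, summarisation, normalization between arrays and the array design are not stated there. The authors' deposited table pairs each row with a p-value, whose test and adjustment are not stated, and with a signed fold, treated as a score, in which a fall by n is written -n.

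Values were tested as deposited with limma 3.58.1 in R 4.3.3 (lmFit, eBayes, 2 groups, no covariate), with Benjamini-Hochberg adjustment over 35557 probe sets at 0.05; the prior had 2.49 degrees of freedom beside 4 residual ones. The procedure was tested on simulated data with independent noise for each probe set. That simulation held no pattern shared across probe sets of an array, so it says nothing about how such a pattern affects the calls here. An exact permutation test of 3 against 3 arrays cannot go below 0.1, so none was run. Gene symbols, including Milr1 for Gm885 by its gene number, and promoters came from RefSeq tables on GRCm38.p6, whose build need not be that of the arrays. Accessions named 200 of the 251 rows, gene numbers 19, symbols 8 and synonyms 5, and 19 found no match. All 7 genes matched. A gene with several rows was represented by the probe set with the highest mean.

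The text names the 7 genes, up to 3 nearest profiles of each, predicted genes passed over, and every family gene with a named row. The genes, lists and motifs were chosen with earlier results of these data known. Same-numbered arrays deviated from their group means with correlations of -0.229, -0.45 and -0.0957, and arrays of unlike number with -0.18 to 0.345. All probe sets entered, including the low-numbered ones with their turned order in replicate 2, so these values cannot decide whether cultures were paired. The numbers were not taken as pairs in the reported fit, and the replicate block is an alternative. Protein sequences and motifs in them were not analysed here. Alternatives were a replicate block, each array left out, quantile normalization, median centring, dim probe sets left out, a variance trend, array weights and an unmoderated test. Figures were drawn with matplotlib 3.10.9.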

Additional observations from a re-analysis of the deposited data

How the results depend on the processing

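The count of the 7 called lower was 6, and 5 with the unmoderated test. That called higher was 0 and became 1, Cd55, with array weights and without the low-numbered probe sets. Cd55 had no value without dim probe sets, since it lay below their limit. The planned mean over several probe sets had no use, as each gene had 1 row in the authors' deposited table. Probe sets outside it have no name, so whether others read these genes is not known. Over all probe sets, 154 were called higher and 162 lower. An intensity trend with robust variance gave 410 and 311, leaving out dim probe sets 515 and 342, array weights 814 and 376, the unmoderated test 18 and 22, median centring 130 and 104, and quantile normalization 212 and 309. Added after seeing the data were fits without both arrays of replicate 2 (247 and 85) and without the low-numbered probe sets (332 and 308). Leaving out 1 array at a time gave 9 to 278 called higher and 28 to 136 called lower, the most of each without untreated replicate 2. Beyond fewer arrays or probe sets, the cause was not tested. The replicate block left 6 called higher and 16 called lower. Under it the 6 genes still passed (highest limma adjusted p 0.040, for Emp1), and Cd55 did not pass (0.34). For Fcrl1, dim with tamoxifen, and Cd55, dim in both groups, signal over background could not be given, as the files hold none.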
